A study of Mus musculus with 11 samples.

Results

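The 36 genes described here encode the digestive enzymes, membrane proteins and proton pump of the lysosome, together with a pair of transcription factors that act on such genes. They were taken by symbol from a list of lysosome and vacuolar ATPase genes out of the 52143 genes of the table. They comprise 7 enzymes that cleave sugars from glycoproteins and glycolipids, 6 lipid enzymes, activators and cholesterol transfer proteins, 3 peptidases grouped with progranulin, 7 membrane proteins, the 2 factors Tfeb and Tfe3, 4 subunits of the membrane sector of the proton pump (V0) and 6 subunits of its cytosolic sector (V1). All 36 had a level high enough to be tested. They occupied 37 table lines, because Atp6v1c1 carries a pair of identifiers (ENSMUSG00000022295 and ENSMUSG00000116394) with the same value in every library. It was counted once in counts of genes, but summed levels add both of its lines.

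The cells were RAW cells, a mouse macrophage-type line, that carried a short hairpin RNA against GIV (Girdin, the product of Ccdc88a) or a control hairpin. LPS (lipopolysaccharide, an endotoxin of Gram-negative bacteria sensed through Toll-like receptor 4) was given at 100 ng/ml for 5 h or not at all. The groups used here were GIV-depleted cells with LPS (3 libraries), control cells with LPS (1 library, replicate 2), GIV-depleted cells without LPS (3 libraries) and control cells without LPS (2 libraries, replicates 1 and 3). All 4 groups carry a hairpin, so no cells without one are in the comparisons. The labels do not say whether a hairpin line is 1 clone or whether replicates were separate cultures, so p-values measure only the spread between these libraries. In bulk RNA a smaller share of cells of a type and less RNA per cell cannot be told apart.

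Lysosomes break down material taken up by endocytosis and phagocytosis as well as the cell's own organelles, and macrophages are rich in them. The vacuolar ATPase uses ATP in its V1 sector to pump protons through its V0 sector, which gives the acid interior that lysosomal enzymes need. Tfeb, Tfe3 and their relatives are basic helix-loop-helix factors that bind CACGTG-type sites in the promoters of many lysosomal genes. When nutrients are plentiful, the kinase mTORC1 phosphorylates Tfeb at the lysosome surface and holds it outside the nucleus, a step that transcript levels do not show.

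Levels are TPM (a share of transcripts scaled for their length), and every library sums to 1000000. The depth reached in each library is therefore unknown, and levels of different genes can be compared. Replicate 2 of the control cells without LPS was left out by the rule that chose the genes and libraries. A single annotated microRNA gene, Mir6236, made up 57.8% of the TPM there (3.79% to 8.78% in each of the 9 libraries used). Protein-coding genes made up 7.80% of it (73.9% to 81.5% in those used). Ccdc88a was at 3.08, 2.62 and 3.39 TPM in GIV-depleted cells with LPS, against 5.77 TPM in control cells with LPS, and at 6.93, 5.31 and 5.58 TPM in GIV-depleted cells without LPS, against 10.01 and 7.69 TPM in control cells without it. The libraries did not overlap, but neither difference passed the test (log2 differences -0.75 ± 0.19, adjusted p = 0.0681, and -0.50 ± 0.15, adjusted p = 0.233). All 8 macrophage markers reached 1 TPM in every group, whereas none of the 6 fibroblast, 6 lymphoid or 5 epithelial markers did in any group.

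The sequence that Tfeb and Tfe3 recognise could be read in the promoters of 30 of the 36 genes (RefSeq, GRCm38.p6, 250 bases before to 50 after the gene's start, both strands). CACGTG stood in 9 of them (30%), in 24.2% of the promoters of 99 other lysosome and pathway genes, in 12.1% of those of 9099 tested genes and in 8.09% of all 27025 promoters. The longer TCACGTG, which contains CACGTG, stood in the same 9 promoters (30%) and in 23.2%, 7.23% and 4.29% of the other sets. A still longer motif, with G before TCACGTG and AC after it, stood in 0 of the 30 promoters. Its shares in the other sets were 2.02%, 0.857% and 0.37%, so this form was not more frequent in the promoters of these genes. The 9 genes with CACGTG were Atp6v0b, Atp6v0d1, Atp6v1a, Gaa, Gla, Glb1, Lamp1, Lgmn and Mcoln1. Stretches of 5 of these promoters are shown as examples, those of Lamp1, Gla and Atp6v0d1, which were lower in GIV-depleted cells with LPS, of the calcium channel Mcoln1 and of Atp6v0b, which holds the hexamer 2 times, 5′ to 3′ on the gene's own strand, all lying before the gene as GENCODE M21 annotates it. They are from chr8:13159079-13159160 (plus strand, Lamp1), chrX:134601173-134601253 (minus strand, Gla), chr8:105566051-105566078 (minus strand, Atp6v0d1), chr4:117887334-117887386 (minus strand, Atp6v0b) and chr8:3500427-3500456 (plus strand, Mcoln1). Capitals mark CACGTG with the T before it or the A after it where present.
Lamp1: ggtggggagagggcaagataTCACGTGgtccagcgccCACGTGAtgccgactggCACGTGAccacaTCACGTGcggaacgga
Gla: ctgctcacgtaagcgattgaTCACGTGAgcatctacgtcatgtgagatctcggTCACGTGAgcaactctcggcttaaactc
Atp6v0d1: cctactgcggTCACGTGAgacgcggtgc
Atp6v0b: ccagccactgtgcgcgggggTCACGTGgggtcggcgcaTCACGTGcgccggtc
Mcoln1: cttagaaagggtcgcgcttgTCACGTGttc
The Lamp1 stretch holds the hexamer 4 times within 62 bases of the start. Gla and Atp6v0b hold it 2 times. In Atp6v0d1 the marked letters begin 4 bases before the RefSeq start and run past it. Distances are counted from the first marked letter. The Mcoln1 promoter holds it 2 times as well, 72 and 46 bases before the start, and 1 of these is in the stretch shown. All 9 genes with the hexamer were called lower after LPS in GIV-depleted cells, as were 29 of all 36 and 59.7% of all genes tested. In control cells only Atp6v1a, Glb1 and Lgmn of the 9 were called lower, against 44.1% of all genes tested. Atp6v0b, Atp6v0d1 and Lamp1 of the 9 had a positive difference in GIV-depleted cells with TMM scaling. The matches describe the letters only, and binding was not measured in these samples.

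The summed level of the 36 genes, with Atp6v1c1 added under both identifiers, was 5386, 5664 and 5161 TPM in GIV-depleted cells with LPS and 8125 TPM in control cells with LPS. It was 8078, 8723 and 8854 TPM in GIV-depleted cells without LPS and 8926 and 10433 TPM in control cells without LPS. The 3 GIV-depleted libraries with LPS were thus the lowest, and the control library with LPS lay among the libraries without LPS. Gpnmb, a transmembrane glycoprotein of macrophages and melanocytes, was the most abundant of the genes in all 4 groups, and Atp6v0c, the proteolipid that makes up most of the V0 rotor ring, came next in all 4. Tfeb was the least abundant in both groups with LPS, and Atp6v0a1, the V0 subunit through which protons pass, was the least abundant in both groups without it. Sums of the 10 subunits of the pump also add Atp6v1c1 under both identifiers. They were at 1704, 1793 and 1609 TPM in GIV-depleted cells with LPS, against 2230.4 TPM in control cells with LPS. Without LPS they were at 2296, 2489.6 and 2489 TPM in GIV-depleted cells, against 2164 and 2505 TPM in control cells.

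**Figure D1:**
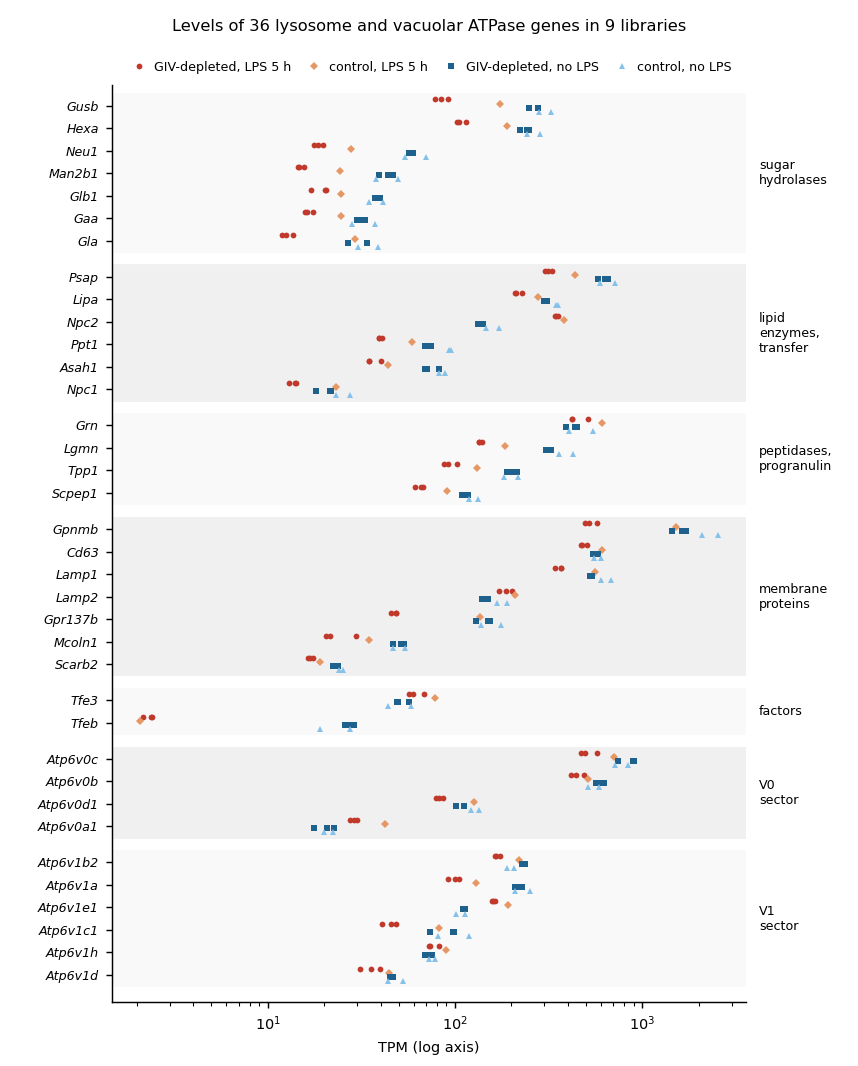
TPM on a log axis for each of the 36 genes, grouped by role, with 1 point per library and colours for the 4 groups. Gpnmb lies highest (496 to 576 TPM in GIV-depleted cells with LPS and 1514 TPM in control cells with LPS), and Tfeb with LPS lies lowest (2.09 to 2.42 TPM).

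In GIV-depleted cells most of the 36 genes were lower after LPS. Among them 29 (80.6%) were called lower, which means an adjusted p under 0.05 in limma over all 13711 genes tested, and 4 were called higher. Over all genes tested 59.7% were called lower and 15.8% higher. Among the 7272 genes at least as abundant as Tfeb, a set chosen after the values were seen, 66.5% were called lower. The median log2 difference was -0.82 over the 36 genes and -0.54 over all genes. In control cells 16 of the 36 (44.4%) were called lower, against 44.1% of all genes, and 4 were called higher, against 14.8% of all genes. The median in control cells was -0.29 over the 36 genes and -0.40 over all. The share in control cells was near that of all genes and is therefore no result about these genes. The 16 genes called lower in control cells were all called lower in GIV-depleted cells, another 13 passed in GIV-depleted cells and did not pass in control cells, which is no test of a difference, and no gene was called in opposite directions. Grn and Atp6v1h were called in neither line as deposited, but both were called higher in both lines with TMM scaling.

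The direction of the smaller LPS differences depended on how libraries were scaled. With TMM scaling, which sets the bulk of genes level between libraries, the median of all genes was -0.03 in GIV-depleted cells and -0.02 in control cells. Relative to the median of all genes the 36 genes lay at -0.27 in GIV-depleted cells as deposited, -0.17 with TMM scaling and -0.49 with quantile normalization. In control cells they lay at 0.11, 0.17 and -0.23. In GIV-depleted cells 18 of the 29 were called lower under all 3 scalings, and so were 8 of the 16 in control cells. With TMM scaling 18 of the 36 were called lower and 13 higher in GIV-depleted cells, against 34.4% lower and 32.8% higher over all genes. In control cells they were then 8 lower and 13 higher, against 26.7% and 26.4% of all genes, so the share called lower there was below that of all genes. Of the 29 lower in GIV-depleted cells, 6 were then called higher instead: Atp6v0b, Atp6v0d1, Atp6v1b2, Cd63, Lipa and Scarb2. Mitochondrial genes took 3.61% to 4.78% of TPM in GIV-depleted cells with LPS, against 6.47% to 8.08% without it, and 4.04% in control cells with LPS, against 5.23% and 8.32% without it. The 8 macrophage markers summed to 11559 to 12055 TPM in GIV-depleted cells with LPS, against 16851 to 17313 TPM without it, and to 13695 TPM in control cells with LPS, against 18131 and 18335 TPM without it. Lyz2, lysozyme, carries most of that sum, and the sum of the other 7 was higher with LPS, at 3490 to 3842 TPM in GIV-depleted cells with LPS, against 2203 to 2228 TPM without it, and 4157 TPM in control cells with LPS, against 2218 and 2505 TPM without it. Of the 8 markers 5 were called higher and 2 lower in GIV-depleted cells and 6 higher and 2 lower in control cells. Of 7 osteoclast markers tested 2 were called higher and 4 lower in GIV-depleted cells and 2 higher and 3 lower in control cells. The part of these genes in the result was not tested.

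**Figure D2:**
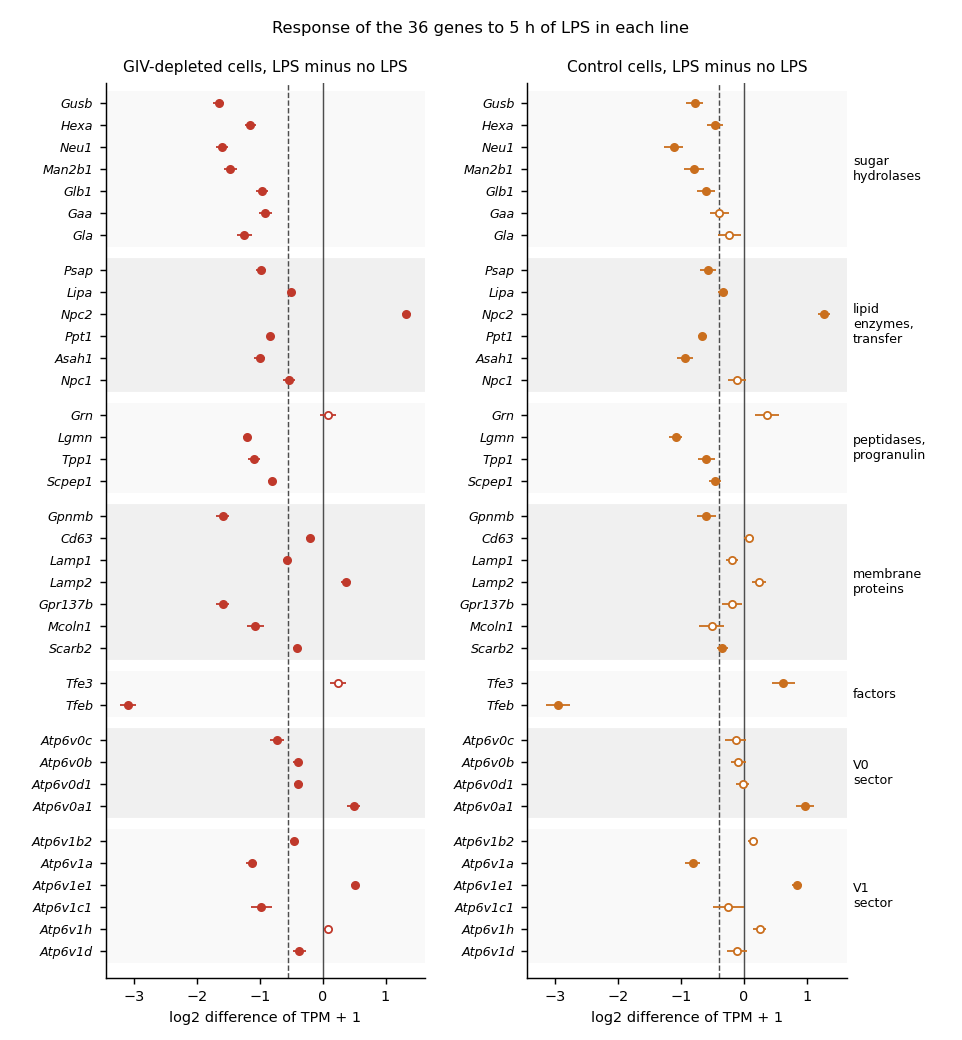
Log2 difference (LPS minus no LPS, in log2(TPM + 1)) of each of the 36 genes with its SE, in GIV-depleted cells and in control cells, with filled symbols for genes called and dashed lines at the median of all genes (-0.54 and -0.40). Tfeb lies lowest in both lines (-3.09 and -2.96) and Npc2 highest (1.33 and 1.27), while 11 of the genes lower in GIV-depleted cells were not called lower with TMM scaling.

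Among the factors, Tfeb showed the largest LPS difference of all 36 genes, while Tfe3 did not fall. Tfeb (chr17:47737030-47792419 on GRCm38), the best studied of these factors, was at 2.42, 2.37 and 2.17 TPM in GIV-depleted cells with LPS, against 25.8, 27.1 and 28.8 TPM without it, and at 2.09 TPM in control cells with LPS, against 19.1 and 27.5 TPM without it. Its level with LPS was 8.51% of that without LPS in GIV-depleted cells and 8.95% in control cells, with no overlap in either line. The log2 difference (with its SE here and throughout) was -3.09 ± 0.13 (adjusted p = 2.91e-07) in GIV-depleted cells and -2.96 ± 0.19 (adjusted p = 9.4e-06) in control cells, and Tfeb was called lower under all 3 scalings. Tfe3 (chrX:7762560-7775202), its close relative, was at 59.7, 68.04 and 56.6 TPM in GIV-depleted cells with LPS, against 49.3, 49.1 and 56.7 TPM without it, and at 78.3 TPM in control cells with LPS, against 43.7 and 58.2 TPM without it. Tfe3 rose in control cells, by 0.62 ± 0.18 (adjusted p = 0.0188) on the log2 scale. That call did not hold without replicate 1 of the control cells without LPS. Nor did it hold with the set number as a block, with no filter on low values or with all 10 libraries. In GIV-depleted cells the difference of Tfe3 was 0.24 ± 0.12 (adjusted p = 0.101), and the groups overlapped, although Tfe3 was called higher there under both other scalings. The responses of Tfeb and Tfe3 did not pass the test of a difference between the lines (log2 -0.13 ± 0.23, adjusted p = 0.795, and -0.38 ± 0.22, adjusted p = 0.409).

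All 7 sugar-cleaving enzymes were called lower in GIV-depleted cells and 5 of the 7 in control cells, with medians of -1.24 and -0.60. For all genes tested the shares lower were 59.7% and 44.1%, with medians of -0.54 and -0.40. The depleted-cell calls of all 7 held under all 3 scalings, and 3 held in control cells with TMM scaling. With that scaling 34.4% of all genes were called lower in GIV-depleted cells and 26.7% in control cells. Gusb (chr5:129989011-130003049), the beta-glucuronidase that removes glucuronic acid from glycosaminoglycans, was at 84.03, 92.2 and 78.02 TPM in GIV-depleted cells with LPS, against 249.8, 279 and 277 TPM without it, and at 174 TPM in control cells with LPS, against 281 and 324 TPM without it. Every LPS library was below every library without LPS, and the GIV-depleted ones were the lowest. Its log2 difference was -1.65 ± 0.09 (adjusted p = 1.02e-06) in GIV-depleted cells and -0.79 ± 0.13 (adjusted p = 0.00122) in control cells. Neu1 (chr17:34931253-34935953), the sialidase that removes terminal sialic acids, was at 18.6, 19.8 and 17.6 TPM in GIV-depleted cells with LPS, against 56.7, 59.99 and 58.2 TPM without it, and at 27.9 TPM in control cells with LPS, against 54.2 and 70.3 TPM without it. Its log2 difference was -1.59 ± 0.10 (adjusted p = 2.39e-06) in GIV-depleted cells and -1.12 ± 0.15 (adjusted p = 0.000369) in control cells. As for Gusb, every LPS library was below every library without LPS. Hexa, the alpha subunit of beta-hexosaminidase, which trims GM2 ganglioside, was at 102, 114 and 105 TPM in GIV-depleted cells with LPS, against 224, 244 and 249 TPM without it, and at 190.4 TPM in control cells with LPS, against 241 and 286 TPM without it. It fell in both lines (-1.15 ± 0.08, adjusted p = 5.42e-06 and -0.46 ± 0.12, adjusted p = 0.0124), but the control-cell call did not hold with TMM scaling. Man2b1, a lysosomal alpha-mannosidase, and Glb1, the beta-galactosidase often used as a stain for senescent cells, were called lower in both lines as well (in GIV-depleted cells -1.47 ± 0.11 and -0.96 ± 0.09, and in control cells -0.80 ± 0.16 and -0.60 ± 0.14). Gla (chrX:134588149-134601125), the alpha-galactosidase that is deficient in Fabry disease, was at 11.9, 13.6 and 12.6 TPM in GIV-depleted cells with LPS, against 26.97, 33.9 and 33.7 TPM without it, and at 29.1 TPM in control cells with LPS, against 30.3 and 38.96 TPM without it. It fell in GIV-depleted cells (-1.24 ± 0.12, adjusted p = 3.64e-05) and was not called in control cells (-0.23 ± 0.18, adjusted p = 0.307), where the LPS library was only just below those without LPS. Gaa, which releases glucose from glycogen, was called in GIV-depleted cells (-0.91 ± 0.10) and not in control cells (-0.39 ± 0.15, adjusted p = 0.0599).

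In the lipid and cholesterol group 1 gene was called higher and 5 lower in GIV-depleted cells, and 1 higher and 4 lower in control cells. With TMM scaling these were 2 and 3 in GIV-depleted cells and 2 and 2 in control cells. All genes tested stood at 15.8% higher and 59.7% lower in GIV-depleted cells and 14.8% and 44.1% in control cells. Their shares with TMM scaling were 32.8% and 34.4%, and 26.4% and 26.7%. The gene called higher was the same in both lines. Npc2 (chr12:84754562-84773152), a soluble protein that hands cholesterol to the membrane protein Npc1, was at 344, 354 and 342 TPM in GIV-depleted cells with LPS, against 132, 142 and 137 TPM without it, and at 382 TPM in control cells with LPS, against 146 and 171 TPM without it. That was 253% of the level without LPS in GIV-depleted cells and 241% in control cells, with log2 differences of 1.33 ± 0.07 (adjusted p = 7.9e-07) and 1.27 ± 0.10 (adjusted p = 2.49e-05). Npc1, its membrane partner, was called lower in GIV-depleted cells on the TPM scale, at -0.54 ± 0.10 (adjusted p = 0.00112), but was at 0.05 with TMM scaling and 0.03 with quantile normalization. In control cells Npc1 was not called (-0.11 ± 0.14, adjusted p = 0.523). Asah1, the acid ceramidase, was at 40.1, 34.7 and 34.6 TPM in GIV-depleted cells with LPS, against 81.7, 69.5 and 70.8 TPM without it, and at 44.1 TPM in control cells with LPS, against 88.2 and 82.5 TPM without it. Its log2 difference was -1.002 ± 0.09 (adjusted p = 1.74e-05) in GIV-depleted cells and -0.94 ± 0.13 (adjusted p = 0.000532) in control cells, with no overlap in either. Psap, the precursor of the saposins that help enzymes reach glycolipids, was at 314, 329 and 303 TPM in GIV-depleted cells with LPS, against 583, 636 and 655 TPM without it, and at 437 TPM in control cells with LPS, against 592 and 713 TPM without it. It fell in both lines (-0.98 ± 0.08 and -0.57 ± 0.12). Ppt1, which removes palmitate from proteins, fell in both lines (-0.83 ± 0.05, adjusted p = 2.15e-06 and -0.66 ± 0.07, adjusted p = 0.000165). The fall of Asah1 and Ppt1 held under all 3 scalings in both lines and that of Psap in GIV-depleted cells. Lipa, which splits cholesteryl esters and triglycerides, was called lower on the TPM scale (-0.50 ± 0.05 and -0.34 ± 0.08) but lay at 0.12 and 0.11 with TMM scaling.

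All 3 peptidases were called lower in both lines, but with TMM scaling 1 of the 3 in control cells. Over all genes tested 59.7% were called lower in GIV-depleted cells and 44.1% in control cells (34.4% and 26.7% with TMM scaling). Lgmn (chr12:102394084-102439813), legumain, which cuts after asparagine and processes cathepsins, was at 135, 139.7 and 134 TPM in GIV-depleted cells with LPS, against 305, 315 and 325 TPM without it, and at 184 TPM in control cells with LPS, against 361 and 425 TPM without it. Its log2 difference was -1.21 ± 0.07 (adjusted p = 1.53e-06) in GIV-depleted cells and -1.09 ± 0.10 (adjusted p = 6.26e-05) in control cells, and both calls held under every scaling. All libraries with LPS lay below all without it. Tpp1, a tripeptidyl peptidase, and Scpep1, a serine carboxypeptidase, fell in GIV-depleted cells (-1.09 ± 0.09 and -0.81 ± 0.07) under every scaling. Their control-cell calls (-0.60 ± 0.13 and -0.47 ± 0.10) did not hold with TMM scaling. Progranulin, the secreted precursor whose fragments act in lysosomes, was the most abundant of this group after LPS. It was not called on the TPM scale but was called higher in both lines with TMM scaling. Grn was at 421, 512 and 420.4 TPM in GIV-depleted cells with LPS, against 389.9, 439 and 446 TPM without it, and at 608 TPM in control cells with LPS, against 407 and 546 TPM without it. Libraries with and without LPS overlapped in GIV-depleted cells (0.08 ± 0.13, adjusted p = 0.58), and the control-cell difference was 0.37 ± 0.19 (adjusted p = 0.134).

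Among the 7 membrane proteins 6 were called lower and 1 higher in GIV-depleted cells and 2 lower and 0 higher in control cells. With TMM scaling these were 3 and 3 in GIV-depleted cells and 0 and 3 in control cells. All genes tested stood at 59.7% lower and 15.8% higher in GIV-depleted cells and 44.1% and 14.8% in control cells. Their shares with TMM scaling were 34.4% and 32.8%, and 26.7% and 26.4%. Gpnmb (chr6:49036546-49070929) was at 516, 576 and 496 TPM in GIV-depleted cells with LPS, against 1434, 1634 and 1717 TPM without it, and at 1514 TPM in control cells with LPS, against 2079.6 and 2527 TPM without it. Its level with LPS was 33.2% of that without LPS in GIV-depleted cells and 65.7% in control cells (log2 -1.59 ± 0.10, adjusted p = 3.25e-06 and -0.60 ± 0.15, adjusted p = 0.0111). The control library with LPS lay within the range of the GIV-depleted libraries without it. Gpr137b (chr13:13357620-13394014), a lysosomal membrane protein tied in human cells to the Rag GTPases that recruit mTORC1, was at 48.2, 45.4 and 48.2 TPM in GIV-depleted cells with LPS, against 129.9, 149 and 154 TPM without it, and at 136 TPM in control cells with LPS, against 138 and 176 TPM without it. It fell in GIV-depleted cells (-1.59 ± 0.10, adjusted p = 3.12e-06) and was not called in control cells (-0.19 ± 0.15, adjusted p = 0.315). Gpr137b was, however, called lower in control cells with quantile normalization and without replicate 1 of the control cells without LPS. The control library with LPS was within the range of the GIV-depleted libraries without LPS. Mcoln1 (chr8:3500457-3515232), the TRPML1 channel that lets calcium out of lysosomes, was at 29.5, 21.4 and 20.5 TPM in GIV-depleted cells with LPS, against 46.7, 51.3 and 53.5 TPM without it, and at 34.6 TPM in control cells with LPS, against 46.5 and 53.8 TPM without it. It fell in GIV-depleted cells (-1.07 ± 0.14, adjusted p = 0.000168) under every scaling and was not called in control cells (-0.52 ± 0.21, adjusted p = 0.0621), although the control library with LPS lay below both without it. Lamp1 and Lamp2 are the heavily glycosylated proteins that line the lysosomal membrane, and they differed in direction. Lamp2 was at 203, 173 and 188 TPM in GIV-depleted cells with LPS, against 149.7, 145 and 139 TPM without it, and at 209.9 TPM in control cells with LPS, against 189 and 168 TPM without it. Lamp2 rose in GIV-depleted cells (0.37 ± 0.08, adjusted p = 0.00233) under every scaling, while Lamp1 fell on the TPM scale (-0.56 ± 0.06, adjusted p = 5.68e-05) but was at 0.06 with TMM scaling. Cd63, a tetraspanin of late endosomes and exosomes, and Scarb2, which carries glucocerebrosidase to lysosomes, were called lower in GIV-depleted cells on the TPM scale (-0.20 ± 0.05 and -0.41 ± 0.06), and both were higher with TMM scaling (0.42 and 0.18).

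The proton pump did not move as a unit. Of its 10 subunits 2 were called higher and 7 lower in GIV-depleted cells, and 2 higher and 1 lower in control cells. The shares of all genes tested were 15.8% higher and 59.7% lower, and 14.8% higher and 44.1% lower. The counts in GIV-depleted cells were near these shares and are no result about the pump. With TMM scaling 6 were called higher and 1 lower in each line. All genes then stood at 32.8% higher and 34.4% lower in GIV-depleted cells and 26.4% and 26.7% in control cells. Atp6v0a1 was at 30.1, 28.7 and 27.6 TPM in GIV-depleted cells with LPS, against 17.7, 20.6 and 22.6 TPM without it, and at 42.2 TPM in control cells with LPS, against 19.9 and 22.4 TPM without it. It rose in both lines (0.49 ± 0.10, adjusted p = 0.00186 and 0.97 ± 0.14, adjusted p = 0.000742). Atp6v1e1, part of the peripheral stalk that holds the sectors together, was at 163, 159 and 157 TPM in GIV-depleted cells with LPS, against 113, 111 and 111 TPM without it, and at 192 TPM in control cells with LPS, against 101 and 113 TPM without it. It rose as well (0.51 ± 0.05, adjusted p = 5.51e-05 and 0.84 ± 0.08, adjusted p = 7.63e-05), and both genes were called higher under every scaling. The catalytic subunit Atp6v1a fell in both lines under every scaling (-1.13 ± 0.08, adjusted p = 6.3e-06 and -0.82 ± 0.12, adjusted p = 0.000799). Its level was 105, 99.4 and 92.1 TPM in GIV-depleted cells with LPS, against 208, 216 and 227 TPM without it. The other subunits with calls in GIV-depleted cells were Atp6v0b and Atp6v0c of the rotor ring, Atp6v0d1, which links the ring to the central stalk, Atp6v1b2 beside the catalytic subunit, Atp6v1c1 and the rotor stalk Atp6v1d. They lay between -0.98 and -0.37 on the TPM scale, but Atp6v0b, Atp6v0d1, Atp6v1b2 and Atp6v1d were positive with TMM scaling (0.22, 0.23, 0.16 and 0.24). Atp6v0c, the most abundant of the V0 subunits, was at 496, 575 and 471 TPM in GIV-depleted cells with LPS, against 743, 908 and 892 TPM without it, and at 707 TPM in control cells with LPS, against 717 and 837 TPM without it. Atp6v1b2, the most abundant of the V1 subunits, was at 166, 174 and 164 TPM in GIV-depleted cells with LPS, against 230.0, 236 and 229 TPM without it, and at 219 TPM in control cells with LPS, against 189 and 207 TPM without it. The control library with LPS was above both control libraries without it for Atp6v1b2, and below both for Atp6v0c. Atp6v1h, which couples ATP use to pumping, was not called on the TPM scale (0.08 ± 0.07 and 0.25 ± 0.10) but was called higher in both lines with TMM scaling. Summed over its identifiers, Atp6v1c1 was at 97.2, 81.1 and 91.1 TPM in GIV-depleted cells with LPS and 165 TPM in control cells with LPS, and at 195, 147 and 197 TPM in GIV-depleted cells without LPS and 161 and 238 TPM in control cells without it.

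After LPS, GIV-depleted cells had lower levels of many of these genes than control cells. Of the 36 genes 14 (38.9%) were called lower and 0 higher, against 4.38% lower and 0.89% higher over all genes tested and 6.53% lower among the genes at least as abundant as Tfeb. At an unadjusted p under 0.05 limma gave 28 lower and 0 higher, and 18.2% of all genes lower and 3.93% higher. The median log2 difference was -0.47, against -0.12 over all genes, and 35 of the 36 were below 0, against 68.7% of all genes. In 35 of the 36 the 3 GIV-depleted libraries lay below the control library, as in 48.7% of all genes. All of these values rest on the same lone control library, whose spread is borrowed from the replicated groups. Protein-coding genes made up 81.5% of TPM in that library, against 73.9% to 76.8% in the GIV-depleted libraries with LPS. Mir6236 made up 3.79%, against 4.85% to 7.27%. The part of these shares in the result was not tested.

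The membrane proteins Gpnmb and Gpr137b differed most. Gpnmb was at 516, 576 and 496 TPM in GIV-depleted cells, against 1514 TPM in control cells, a log2 difference of -1.52 ± 0.14 (adjusted p = 0.00319). Gpr137b was at 48.2, 45.4 and 48.2 TPM in GIV-depleted cells, against 136 TPM in control cells, a difference of -1.51 ± 0.14 (adjusted p = 0.00319). Mean levels in GIV-depleted cells were thus 35.0% and 34.6% of the control level. Gla was at 11.9, 13.6 and 12.6 TPM in GIV-depleted cells, against 29.1 TPM in control cells (-1.14 ± 0.17, adjusted p = 0.0142). Gusb was at 84.03, 92.2 and 78.02 TPM, against 174 TPM (-1.04 ± 0.12, adjusted p = 0.00684). Their levels were 43.7% and 48.6% of the control level. The next enzyme by size was Hexa (-0.82 ± 0.11, adjusted p = 0.0108), and the largest difference of a pump subunit among the 14 was that of Atp6v0d1, at 81.8, 86.2 and 79.3 TPM, against 126 TPM in control cells (-0.61 ± 0.09, adjusted p = 0.015). Lamp1 and Ppt1 were also lower (-0.64 ± 0.08, adjusted p = 0.00992 and -0.56 ± 0.07, adjusted p = 0.00842). These 8 genes were called lower under all 3 scalings and in each fit that left out 1 of the 8 libraries other than the lone control library. In a fit of only these 2 groups Gla, Gpnmb and Gpr137b of the 8 were called, and with the set number as a block Atp6v0d1, Lamp1 and Ppt1 were not.

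The other 6 called genes were Atp6v1b2, Lgmn, Lipa, Man2b1, Npc1 and Scpep1, with log2 differences of -0.72 (Npc1) to -0.36 (Lipa) and adjusted p-values of 0.0283 to 0.0492. Each lost its call when some library was left out. By role, 4 of the 7 sugar-cleaving enzymes, 3 of the 6 lipid genes, 2 of the 4 peptidases and progranulin, 3 of the 7 membrane proteins, 0 of the 2 factors, 1 of the 4 V0 subunits and 1 of the 6 V1 subunits were called lower. The share of all genes tested was 4.38%. Tfeb had a difference of 0.10 ± 0.18 (adjusted p = 0.784), Tfe3 of -0.35 ± 0.17 (adjusted p = 0.284) and Mcoln1 of -0.54 ± 0.19 (adjusted p = 0.156). None of these 3 passed the test. All 14 genes were also among the 29 called lower after LPS in GIV-depleted cells, but that comparison uses the same GIV-depleted libraries with LPS. The abundant genes Psap, Grn and Atp6v0c had differences of -0.47 ± 0.12, -0.44 ± 0.18 and -0.47 ± 0.16 without a call, and Npc2 had -0.14 ± 0.09.

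The count of 14 moved with the setting, while the share of the 36 genes stayed above that of all genes in every fit that made calls. It was 3 in a fit of only these 2 groups. It was 9, 8 and 8 without replicates 1, 2 and 3 of the GIV-depleted cells without LPS, and 10, 8 and 8 without replicates 1, 2 and 3 of those with LPS. It was 21 without either replicate 1 or replicate 3 of the control cells without LPS. The summed level of the 8 macrophage markers was 11559 to 12055 TPM in GIV-depleted cells with LPS and 13695 TPM in control cells with LPS (3490 to 3842 TPM and 4157 TPM without Lyz2), and Adgre1, Csf1r and Itgam of that list were called lower. The 8 markers of osteoclasts, cells that macrophage precursors can become and that use the same pump at their surface, summed to 203 to 233 TPM in GIV-depleted cells with LPS and 173 TPM in control cells with LPS. Of 7 tested, Acp5, Atp6v0d2, Dcstamp and Mmp9 were called higher and Ctsk lower, with Calcr at 0 in the GIV-depleted libraries. The part of either marker list in the result was not tested.

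**Figure D3:**
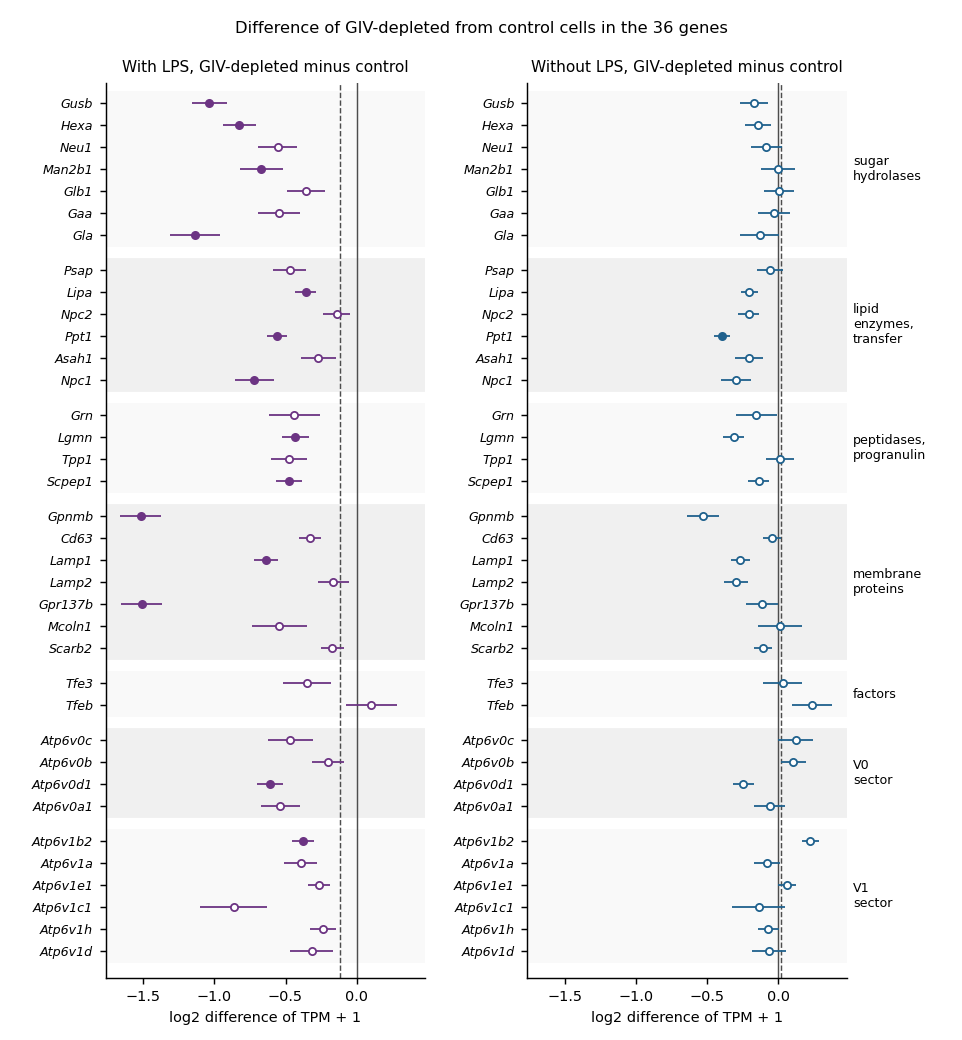
Log2 difference (GIV-depleted minus control cells) of each of the 36 genes with its SE, with LPS and without LPS, with filled symbols for genes called and dashed lines at the median of all genes. With LPS 35 genes lie below 0 (34 with TMM scaling, where Npc2 and Tfeb lie above) and 14 are called, and without LPS Ppt1 alone is called (log2 -0.39).

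**Figure D4:**
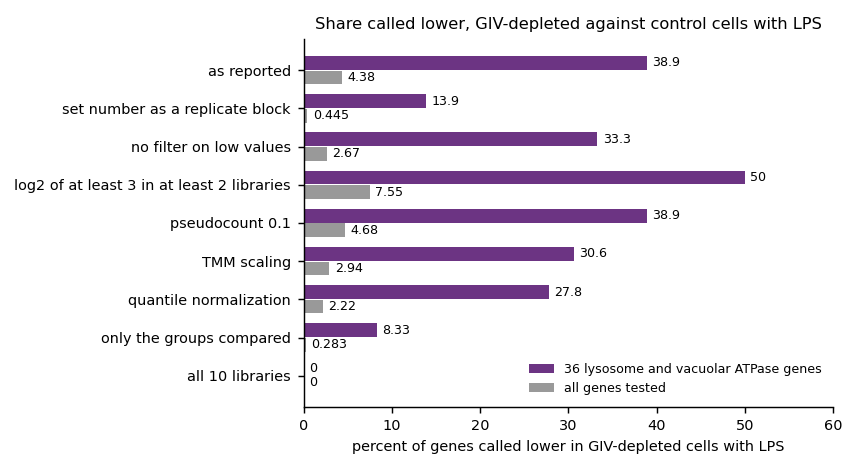
Percent of the 36 genes and of all tested genes called lower in GIV-depleted than in control cells with LPS, for the reported fit and each alternative. The 36 genes stand at 38.9% against 4.38% as reported, 30.6% against 2.94% with TMM scaling and 8.33% against 0.283% in a fit of only these 2 groups, and both are at 0 when the left-out library is kept.

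Without LPS, few of these genes were called in GIV-depleted against control cells. The median log2 difference was -0.09 over the 36 genes and 0.02 over all genes, and 30 of the 36 lay below the latter. Ppt1 was the single one called lower (2.78% of the 36), and 0 were called higher, against 0.729% lower and 0.489% higher over all genes tested. At an unadjusted p under 0.05 limma gave 9 lower and 1 higher, and 5.67% of all genes lower and 6.57% higher. Ppt1 (chr4:122836242-122859175) was at 69.2, 70.3 and 74.3 TPM in GIV-depleted cells, against 92.9 and 94.7 TPM in control cells, with no overlap and a log2 difference of -0.39 ± 0.06 (adjusted p = 0.0209). With LPS it was at 40.5, 39.2 and 39.3 TPM in GIV-depleted cells, against 58.8 TPM in control cells. With TMM scaling 4 of the 36 genes (11.1%) were called lower, against 1.12% of all genes, and with quantile normalization 5 (13.9%), against 1.36%. The Ppt1 call held under all 3 scalings but in only 3 of 9 fits that left out a library, namely those without the control library with LPS or without replicate 1 or 2 of the GIV-depleted cells with LPS, over which the adjusted p ranged from 0.0205 to 0.103. In 13 of the 36 genes the GIV-depleted libraries lay below both control libraries, against 12.7% of all genes, and in 1, Atp6v1b2 (0.23 ± 0.06, adjusted p = 0.161), above them, against 15.6%. The gene with the lowest difference, Gpnmb, was at 1434, 1634 and 1717 TPM in GIV-depleted cells, against 2079.6 and 2527 TPM in control cells, and did not pass the test (-0.53 ± 0.11, adjusted p = 0.104). Of the macrophage markers Adgre1, Fcgr1 and Itgam were called lower, with sums of 16851 to 17313 TPM in GIV-depleted cells and 18131 and 18335 TPM in control cells (2203 to 2228 TPM, and 2218 and 2505 TPM, without Lyz2). Of the osteoclast markers 5 were called higher and 0 lower, with sums of 321 to 329.97 TPM in GIV-depleted cells and 187 and 201 TPM in control cells. The part of either list in the result was not tested.

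The difference between the LPS responses asks whether LPS moved a gene more in GIV-depleted than in control cells. Gpr137b was the only one of the 36 genes called (2.78%), with a lower response in GIV-depleted cells, against 0.131% of all genes lower and 0.0948% higher. Its log2 difference between responses was -1.40 ± 0.18 (adjusted p = 0.0432), since LPS left it at 32.7% of the level without LPS in GIV-depleted cells and at 86.9% in control cells. At an unadjusted p under 0.05 limma gave 20 lower and 0 higher, and 14.5% of all genes lower and 2.86% higher. The median was -0.37 over the 36 genes and -0.15 over all, and 34 of the 36 were below 0 (27 with TMM scaling and 29 with quantile normalization).

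The next largest were Gla (-1.01 ± 0.22, adjusted p = 0.0984), Gpnmb (-0.99 ± 0.18, adjusted p = 0.0806) and Gusb (-0.87 ± 0.15, adjusted p = 0.0806), which did not pass. Tfeb and Npc2, with the largest LPS responses in either direction, had differences of -0.13 ± 0.23 and 0.07 ± 0.12 between the lines. The Gpr137b call held under all 3 scalings (-1.23 with TMM and -1.07 with quantile normalization), but it held in 1 of 8 fits that left out a library, the one without replicate 3 of the control cells without LPS, over which the adjusted p ranged from 0.032 to 0.136. Reads of Gpr137b may be shared with a pseudogene: 37.7% of the 31-base words of its transcripts also occur in Gpr137b-ps. Gpr137b-ps was at 80.1, 78.9 and 73.5 TPM in GIV-depleted cells with LPS, against 164 TPM in control cells with LPS (-1.07 ± 0.11, adjusted p = 0.00448), so the levels of the 2 genes cannot be told apart fully. Atp6v0c and Cd63 share 29.6% and 32.6% of their words with the pseudogenes Atp6v0c-ps2 and Cd63-ps, and are uncertain in the same way.

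**Figure D5:**
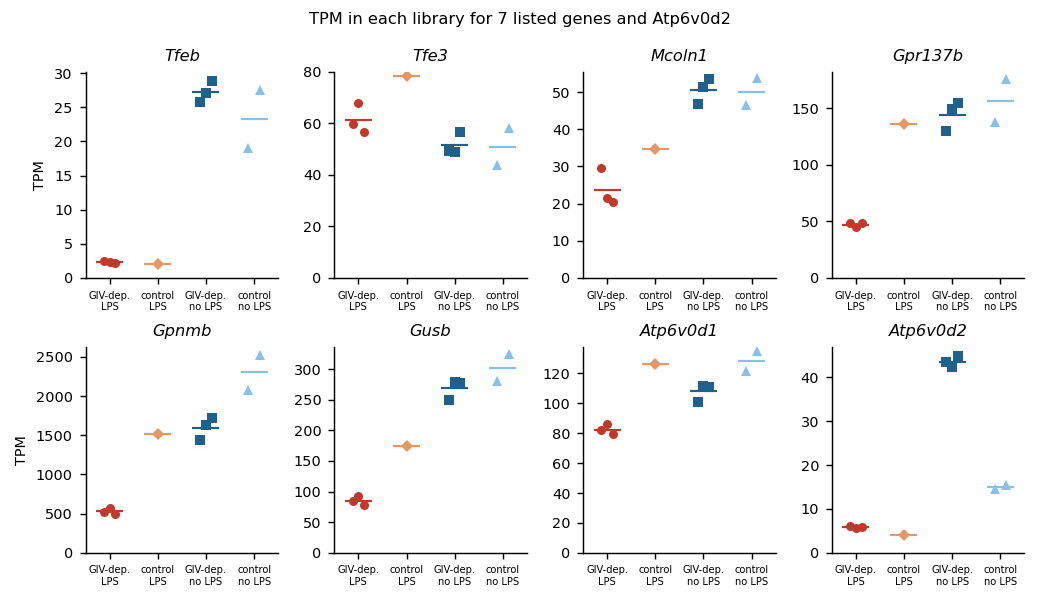
TPM per library for Tfeb, Tfe3, Mcoln1, Gpr137b, Gpnmb, Gusb and the paired pump subunits Atp6v0d1 and Atp6v0d2, with a line at each group's mean. Gpr137b stands at 45.4 to 48.2 TPM in GIV-depleted cells with LPS and at 129.9 to 176 TPM in every other library used, whereas Tfeb is at 2.09 to 2.42 TPM in all libraries with LPS.

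Other genes of the same compartment were counted in 7 lists. As background for every list, 59.7% of all genes tested were called lower and 15.8% higher after LPS in GIV-depleted cells. In control cells these were 44.1% and 14.8%, and in GIV-depleted against control cells with LPS 4.38% and 0.89%. With TMM scaling the shares lower were 34.4%, 26.7% and 2.94%, and the shares higher 32.8%, 26.4% and 2.41%. Of 10 tested among 15 other pump subunits and accessory proteins, 0 were called higher and 7 lower after LPS in GIV-depleted cells, 2 higher and 6 lower in control cells, and 1 higher and 3 lower in GIV-depleted against control cells with LPS. With TMM scaling the split was 3 higher and 5 lower, 4 higher and 2 lower, and 1 higher and 1 lower. Atp6v0d2, the tissue-restricted counterpart of Atp6v0d1 that is abundant in osteoclasts, fell after LPS in GIV-depleted cells (-2.70 ± 0.06, adjusted p = 1.64e-08) and in control cells (-1.66 ± 0.09, adjusted p = 4.42e-06). It was higher in GIV-depleted than in control cells both with LPS (0.44 ± 0.09, adjusted p = 0.0318) and without it (1.48 ± 0.07, adjusted p = 0.000596). Atp6v0e2, a small V0 subunit, fell in both lines (-1.52 ± 0.09 and -1.27 ± 0.14). Tcirg1, which encodes the a3 subunit of lysosomes and osteoclasts, rose in control cells (0.85 ± 0.16, adjusted p = 0.00233) and was not called in GIV-depleted cells (0.24 ± 0.11, adjusted p = 0.0673). The accessory protein Atp6ap2, known as the prorenin receptor, fell in GIV-depleted cells (-1.09 ± 0.07). Atp6ap1, its partner among the accessory proteins, was lower in GIV-depleted than in control cells with LPS (-0.59 ± 0.11, adjusted p = 0.0275). Of 9 assembly factors of the pump 1 was called higher and 8 lower in each line after LPS (1 and 5 in each line with TMM scaling), and 0 in GIV-depleted against control cells with LPS. They were led by Rogdi, a subunit of the RAVE-like complex, at -2.24 ± 0.12 in GIV-depleted cells and -1.92 ± 0.19 in control cells. Wdr7, of the same complex, was at -1.65 ± 0.09 and -1.61 ± 0.13, and Ccdc115 at -1.39 ± 0.06 and -0.95 ± 0.09, with Dmxl1 at -1.02 ± 0.15 in control cells.

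Of 28 other hydrolases and activators 1 was called higher and 24 lower after LPS in GIV-depleted cells, against 59.7% of all genes lower. In control cells 1 was called higher and 22 lower, against 44.1% of all genes lower. In GIV-depleted against control cells with LPS 1 was called higher and 5 lower, against 4.38% of all genes lower. With TMM scaling these were 6 and 17, 5 and 14, and 1 and 4. Sgsh, the sulfamidase of heparan sulfate breakdown, was at -2.93 ± 0.12 after LPS in GIV-depleted cells and -2.52 ± 0.18 in control cells, Dnase2a, the acid DNase, at -2.87 ± 0.07 and -2.07 ± 0.11, and Galc, which degrades galactosylceramide, at -2.32 ± 0.12 and -1.87 ± 0.18. The 1 called higher in GIV-depleted against control cells was Acp5, the tartrate-resistant acid phosphatase, which is also on the osteoclast list (1.41 ± 0.13, adjusted p = 0.00268 with LPS). In the same comparison Dnase2a was lower (-0.83 ± 0.10, adjusted p = 0.00842). Of 23 other membrane proteins tested 4 were called higher and 17 lower after LPS in GIV-depleted cells, 4 higher and 9 lower in control cells, and 0 higher and 2 lower in GIV-depleted against control cells with LPS (8 and 9, 9 and 6, and 0 and 1 with TMM scaling). In control cells the share lower after LPS was near that of all genes and is no result about this list. The endolysosomal channel Tpcn1 (-3.43 ± 0.11 and -2.71 ± 0.16), the sialic acid exporter Slc17a5 (-2.07 ± 0.08 and -2.10 ± 0.11) and the cystine exporter Ctns (-2.02 ± 0.12 and -1.56 ± 0.19) fell in GIV-depleted and control cells. Slc17a5 was the single gene of this list called in GIV-depleted against control cells without LPS (-0.51 ± 0.08, adjusted p = 0.0382), and Abcd4, a cobalamin transporter, was the lower of the 2 called with LPS (-0.72 ± 0.12, adjusted p = 0.0195).

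Of 18 genes of Tfeb's relatives and of nutrient sensing at the lysosome, 2 were called higher and 14 lower after LPS in GIV-depleted cells and 4 higher and 11 lower in control cells (5 and 9, and 6 and 4, with TMM scaling). Against control cells with LPS 0 were called higher and 6 lower in GIV-depleted cells (0 and 3 with TMM scaling). Tfec, the relative of Tfeb that is restricted to the myeloid lineage, rose after LPS in both lines (0.63 ± 0.12 and 1.04 ± 0.18), the opposite direction to Tfeb. Mitf, another relative, was called higher in both lines as well. The Rag GTPase Rragb (-1.90 ± 0.11 and -1.63 ± 0.17) and the Rag regulator Flcn (-1.61 ± 0.11 and -0.86 ± 0.17) fell in both, and so did Depdc5, which inhibits the Rag GTPases (-1.21 ± 0.11 and -1.40 ± 0.16). With LPS, Fnip2, which partners Flcn, was at -0.93 ± 0.21 (adjusted p = 0.0453) in GIV-depleted against control cells and did not hold its call under either other scaling. Of 20 autophagy genes 1 was called higher and 13 lower in GIV-depleted cells after LPS, 1 higher and 9 lower in control cells, and 0 higher and 3 lower in GIV-depleted against control cells with LPS (8 and 7, 8 and 4, and 0 and 3 with TMM scaling). The shares lower after LPS were near those of all genes (59.7% and 44.1%) and are no result about this list. Sqstm1, the cargo receptor p62, rose after LPS in both lines (0.93 ± 0.08 and 1.43 ± 0.13). Plekhm1, which tethers lysosomes for fusion (-2.39 ± 0.12 and -1.51 ± 0.18), and Ulk1, the kinase that starts autophagy (-1.001 ± 0.14 and -1.28 ± 0.21), fell. Atg7, the enzyme that activates the autophagy conjugation system, and Vps18, of the tethering complexes, fell in GIV-depleted cells under every scaling (-1.07 ± 0.06 and -1.11 ± 0.10).

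Of 9 genes that sort enzymes to lysosomes 1 was called higher and 7 lower after LPS in GIV-depleted cells, 1 higher and 6 lower in control cells, and 0 higher and 2 lower in GIV-depleted against control cells with LPS (3 and 6, 3 and 3, and 0 and 2 with TMM scaling). Gga2, an adaptor that packs mannose 6-phosphate receptors (-2.47 ± 0.07 and -1.77 ± 0.11), Gnptab, which makes the mannose 6-phosphate tag (-1.55 ± 0.07 and -1.21 ± 0.11), and the receptor Igf2r (-1.29 ± 0.09 and -0.64 ± 0.13, the second not called with TMM scaling) fell, whereas the smaller receptor M6pr was the 1 called higher. Sort1, a further sorting receptor, fell in control cells on the TPM scale (-0.81 ± 0.20). Gga2 and Igf2r were the 2 called lower in GIV-depleted cells with LPS (-0.77 ± 0.10, adjusted p = 0.0101 and -0.70 ± 0.12, adjusted p = 0.0223).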

How the data were processed

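Stranded libraries of RAW cell RNA without ribosomal RNA were read as pairs of 100 bases, per the labels' protocols. The deposited values are log2(TPM + 1) per gene, which the authors made with kallisto 0.45.0 on GRCm38, per the submitters' processing notes; the annotation release and the summing of transcripts are not given in the sources used here. TPM keeps no read totals, so depth and counting precision are unknown. The labels list 11 samples; control cells with LPS, replicate 3, were not analysed here. No pair among the 45 pairs of libraries was identical.

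The model was limma 3.58.1 in R 4.3.3, with 4 group means over 9 libraries, a mean-variance trend and 5 residual degrees of freedom. A gene was tested if 2 or more libraries had a log2 value of 1 or more (13711 genes), with Benjamini-Hochberg adjustment per comparison and a threshold of 0.05. The fit was tried on simulated data with changes planted in GIV-depleted cells with LPS. That trial left out LPS in control cells and the difference between the LPS responses, and its outcome is not reported here. A log2 difference is of TPM + 1 and understates changes of low genes. The 36 genes, the 7 roles, the lists and the tests were chosen with earlier results of these data known. The lists were other pump subunits, assembly factors, other hydrolases, other membrane proteins, Tfeb relatives and nutrient sensing, autophagy, enzyme sorting, and markers of macrophages, osteoclasts, fibroblasts, lymphoid and epithelial cells. Full values were given for Tfeb, Tfe3 and Mcoln1, for the 4 called genes with the largest change in each direction per comparison, and for the most abundant gene of each role, and from each other list the 3 called genes with the largest change in a comparison. A gene that this rule names is not reported here.

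The alternatives tried were a block for set number, no filter, a filter at log2 of 3, a pseudocount of 0.1, TMM scaling of TPM (written out in R after the usual definition), quantile normalization, only the groups compared, all 10 libraries, and leaving out each library. Gene positions and shared 31-base words came from GENCODE M21, and promoters from RefSeq (GRCm38.p6). Tables and figures used Python 3.11.15, pandas 2.3.3, numpy 2.4.6 and matplotlib 3.10.9.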

Additional observations from a re-analysis of the deposited data

Results flagged for a closer look

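Gpr137b stood out because the LPS responses of GIV-depleted and control cells differed by the test of that difference (log2 -1.4, 0.0432 as the adjusted p in limma). It was lower with LPS in 3 of 3 GIV-depleted libraries than in any other of the 9 libraries used. The library left out held 33.3 TPM of it. Its responses were -1.59 ± 0.10 in GIV-depleted cells and -0.19 ± 0.15 in control cells. The control response was called lower with quantile normalization and without replicate 1 of the control cells without LPS. The call of a difference between the lines held in 1 of 8 fits that left out a library, and not with the set number as a block (adjusted p = 0.22).

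Atp6v0d2, which is outside the 36 genes, was picked out by the same test (log2 -1.04, adjusted p = 0.0281). It was at 6.05, 5.61 and 5.89 TPM in GIV-depleted cells with LPS, against 4.06 TPM in control cells with LPS. In the absence of LPS the level was 43.4, 42.4 and 44.9 TPM in GIV-depleted cells, against 14.5 and 15.6 TPM in control cells. It fell after LPS in both lines, and it lay above the control libraries in GIV-depleted cells at both times. The call held under all 3 scalings but in 1 of 8 fits that left out a library, the one without replicate 3 of the control cells without LPS, over which the adjusted p in limma ranged from 0.035 to 0.104. It did not hold with the set number as a block (adjusted p = 0.217) or with all 10 libraries (adjusted p = 0.715).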

How the results depend on the processing

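The labels do not say whether a set number marks a shared day or culture. Correlations of same-numbered libraries' deviations from their group means ran from -0.0013 to 0.0972. Those of libraries with different numbers ran from -0.0972 to 0.0362. With so few libraries per group, and no deviation for the lone control library with LPS, these correlations cannot decide whether sets were paired. With the set number as a block, genes of the 36 called lower numbered 5 for GIV depletion with LPS (Gla, Gpnmb, Gpr137b, Gusb and Hexa), 0 without LPS and 0 for the difference between responses. In a fit of only the groups compared they numbered 3 with LPS, 0 without LPS and 10 for LPS in control cells. With TMM scaling 18 were lower and 13 higher after LPS in GIV-depleted cells, 8 lower and 13 higher in control cells, and 4 lower for GIV depletion without LPS. Quantile normalization gave 7 higher after LPS in GIV-depleted cells and 5 lower for GIV depletion without LPS. No filter and the stricter filter each gave 2 lower for the difference between responses. With all 10 libraries 1 gene (Tfeb) was lower after LPS in GIV-depleted cells, 0 were higher there, and 0 were called in either direction for LPS in control cells, for GIV depletion with or without LPS, or for the difference.

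Leaving out each library gave 8 to 21 lower for GIV depletion with LPS, 0 to 1 without LPS, 0 to 1 for the difference, and 16 to 19 lower for LPS in control cells, where 4 to 6 were higher. It gave 29 lower and 4 to 5 higher for LPS in GIV-depleted cells. Without the lone control library with LPS, the 3 comparisons that need it could not be fitted.

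Called signs turned as follows. After LPS in GIV-depleted cells TMM scaling gave Atp6v0b 0.22, Atp6v0d1 0.23, Atp6v1b2 0.16, Atp6v1d 0.24, Cd63 0.42, Lamp1 0.058, Lipa 0.12, Npc1 0.049 and Scarb2 0.18, and quantile normalization gave Npc1 0.035 and Scarb2 0.13. In control cells TMM scaling gave Atp6v0b 0.36, Atp6v0d1 0.42, Lamp1 0.25, Lipa 0.11, Npc1 0.32 and Scarb2 0.081, and quantile normalization gave Cd63 -0.22. In control cells with all 10 libraries Asah1 was 0.26, Atp6v1a 0.29, Glb1 0.38, Gpnmb 0.30, Gusb 0.22, Hexa 0.62, Lgmn 0.19, Lipa 0.77, Ppt1 0.32, Psap 0.35, Scarb2 0.46, Scpep1 0.60 and Tpp1 0.42. For GIV depletion without LPS Ppt1 was 0.59 with all 10 libraries. The cause of these turns was not tested. The tenth library holds 1131 TPM of these genes, with Atp6v1c1 added under both identifiers, against 5161 to 10433 TPM in the others. Low genes such as Tfeb with LPS lie near the point where TPM + 1 compresses differences, and the lone control library sets the precision of 3 of the 5 comparisons.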

Other observations

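Some pump subunits have interchangeable forms, and the ratio of their TPM was read in each library. Atp6v0d2 over Atp6v0d1 was 0.0740, 0.0651 and 0.0743 in GIV-depleted cells with LPS, against 0.0322 in control cells with LPS. Without LPS it was 0.430, 0.380 and 0.404 in GIV-depleted cells, against 0.119 and 0.115 in control cells. The form that is abundant in osteoclasts was thus the minor one in every library, and its share was highest in GIV-depleted cells without LPS. The ratio of the a3 form Tcirg1 to the a1 form Atp6v0a1 was 19.9, 23.3 and 19.96 in GIV-depleted cells with LPS, against 19.7 in control cells with LPS, and 26.2, 26.1 and 23.7 in GIV-depleted cells without LPS, against 21.0 and 22.6 in control cells without it. The a3 form thus exceeded the a1 form in all 9 libraries. Acp5 was at 36.1, 40.1 and 34.02 TPM in GIV-depleted cells with LPS, against 13.2 TPM in control cells with LPS, and at 31.9, 34.3 and 28.4 TPM in GIV-depleted cells without LPS, against 9.89 and 10.4 TPM in control cells without it. The GIV-depleted libraries were above the control libraries at both times, by log2 1.41 ± 0.13 (adjusted p = 0.00268) with LPS and 1.54 ± 0.10 (adjusted p = 0.00246) without it.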
